A study of Schizosaccharomyces pombe with 6 samples.

Results

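The genes described here are 7 translation elongation factor genes of fission yeast (Schizosaccharomyces pombe), out of 5113 protein-coding genes on the 3 chromosomes. They are tef101, tef102, tef103, eft201, eft202, tef3 and tef5. The genes tif51 and tif512, for the factor eIF5A, are also annotated as elongation factors (putative for tif512) but are not among them. The 7 genes were chosen by name. Each name matched 1 gene of the ASM294v3 annotation, which also gives each product as an elongation factor. Calibrated ChIP-seq was made with an antibody against the Pk epitope from 3 strains: cells with the SUMO ligase Pli1 tagged as Pli1-12Pk, cells with the SUMO ligase Nse2 tagged as Nse2-12Pk, and cells with no tag. All strains were grown to logarithmic phase in rich medium (YES), mixed with budding yeast cells carrying Ku70-cMyc as a calibrator and crosslinked with formaldehyde. There was 1 ChIP library per strain and therefore no replicate, so no test was made between strains. The values come from the 3 peak lists that the authors deposited, in which a called region has its limits, a summit (its point of highest signal) and a score. Neither the scale of the score nor the read depth is stated in the sources, so a score ranks regions within its own list only.

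Elongation factors carry the ribosome along the mRNA. EF-1 alpha (eEF1A) brings aminoacyl-tRNA to the ribosome as a complex with GTP, and the EF-1 beta subunit of eEF1B exchanges the GDP that is left on it for new GTP. EF-2 (eEF2) moves the ribosome on by a codon, and eEF3 is an ATPase of fungi that the elongation cycle needs, known for releasing the spent tRNA. In growing yeast these genes are among the most strongly transcribed by RNA polymerase II. Pli1 is a SUMO ligase of the PIAS family, and Nse2 is the SUMO ligase subunit of the Smc5/6 complex.

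The genes fall into a family of 3 copies, a family of 2 copies and 2 single genes. EF-1 alpha is encoded by tef101 (chromosome III, 267955 to 269516, minus strand), tef102 (chromosome I, 4095132 to 4096584, plus strand) and tef103 (chromosome II, 626004 to 627522, minus strand). EF-2 is encoded by eft201 (chromosome I, 2907643 to 2910261, minus strand) and eft202 (chromosome III, 537290 to 539922, plus strand). The single genes are tef3, which encodes eEF3 (chromosome III, 1685645 to 1688951, plus strand), and tef5, which encodes EF-1 beta (chromosome III, 1732751 to 1733847, plus strand) and alone of the 7 has an intron. The annotated synonym EF-1aC belongs to both tef102 and tef103, so that name alone does not tell these copies apart.

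The copies are nearly the same DNA. The coding sequences of tef101, tef102 and tef103 are each 1383 bp long and differ at 25 positions in all, and pair by pair they are 98.8% (tef101 and tef102), 98.6% (tef101 and tef103) and 98.9% (tef102 and tef103) identical. The coding sequences of eft201 and eft202 are each 2529 bp long and differ at 11 positions (99.6% identical), and the longest stretch without a difference runs for 587 bp (coding positions 1723 to 2309, counted from the start codon). The end of the EF-1 alpha coding sequence holds 11 of the 25 differing positions in its last 175 bp. That end is shown because most summits of these genes lie in or near it. It is given for each copy on the coding strand, from coding position 1209 to 1383 with the stop codon, and capitals mark the bases at which the copies differ (reference sequence ASM294v3, chr3:268097-268271 minus strand, chr1:4096410-4096584 plus strand and chr2:626106-626280 minus strand).
tef101: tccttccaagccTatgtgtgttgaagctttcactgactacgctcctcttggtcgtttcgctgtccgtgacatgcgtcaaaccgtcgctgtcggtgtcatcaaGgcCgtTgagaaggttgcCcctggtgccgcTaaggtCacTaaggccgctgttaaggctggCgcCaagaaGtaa
tef102: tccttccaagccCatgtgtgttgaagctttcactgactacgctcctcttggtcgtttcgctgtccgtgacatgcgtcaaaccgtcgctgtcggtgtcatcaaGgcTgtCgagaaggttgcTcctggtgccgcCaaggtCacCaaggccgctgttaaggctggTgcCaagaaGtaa
tef103: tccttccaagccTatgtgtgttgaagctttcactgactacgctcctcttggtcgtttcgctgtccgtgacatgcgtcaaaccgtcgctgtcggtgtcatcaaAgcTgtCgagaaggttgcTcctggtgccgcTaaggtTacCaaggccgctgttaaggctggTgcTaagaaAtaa
The stretch from coding position 1222 to 1310, 89 bp, is the same in all 3 copies and contains the untagged summits of tef101 and tef103 and both Nse2 summits in this family. For EF-2, the 91 bp around the untagged summit of eft202 (coding positions 2175 to 2265) are shown because a summit lies there and the letters are the same in both copies, so that no base is capitalised (chr1:2907965-2908055 minus strand in eft201 and chr3:539500-539590 plus strand in eft202).
eft201 and eft202: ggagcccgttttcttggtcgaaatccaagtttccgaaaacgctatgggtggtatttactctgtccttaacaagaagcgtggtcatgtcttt
The single genes have no such copy, and there the summits of different lists can be placed on 1 sequence. The 151 bp centred on the untagged summit are given for each, with the base under each summit in capitals. In tef5 (chr3:1733295-1733445, plus strand) the capitals are the Nse2 summit, the untagged summit and the Pli1 summit in the order in which they occur, and in tef3 (chr3:1688606-1688756, plus strand) they are the untagged summit and then the Pli1 summit.
tef5: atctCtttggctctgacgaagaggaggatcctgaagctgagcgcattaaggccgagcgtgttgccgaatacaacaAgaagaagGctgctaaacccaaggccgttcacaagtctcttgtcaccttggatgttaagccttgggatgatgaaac
tef3: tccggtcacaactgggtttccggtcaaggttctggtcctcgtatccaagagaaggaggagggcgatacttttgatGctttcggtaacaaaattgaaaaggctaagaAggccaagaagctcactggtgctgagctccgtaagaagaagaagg

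Bases inside any 50-mer with a second occurrence elsewhere in the genome, on whichever strand, made up 83.4% of the bases of tef101, 89.5% of tef102, 84.3% of tef103, 94.5% of eft201 and 94% of eft202. There were none in tef3 or tef5. The file headers describe the reads as uniquely mapped to S. pombe, but the sources do not say whether this means a single place in the fission yeast genome or absence from the calibrator's genome, and they give no read length. A read that lies wholly inside a shared stretch cannot be assigned to a copy by its sequence. How the signal divides among tef101, tef102 and tef103, and between eft201 and eft202, is therefore uncertain, and the differences between copies given here are differences in the deposited calls.

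Summits of the tagged strains were close to most of the 7 genes, and each of those summits lay inside an untagged peak. A Pli1 summit lay within 200 bp of 5 of the 7 genes (tef102, tef103, eft202, tef3 and tef5), where 4.60% of all protein-coding genes had one. An Nse2 summit lay within 200 bp of 3 of the 7 (tef101, tef103 and tef5), where 0.821% of protein-coding genes had one. An untagged summit lay within 200 bp of all 7, against 54.1% of protein-coding genes. Both tagged strains had a summit at tef103 and tef5, as 0.528% of protein-coding genes did, and 6 of the 7 had a summit of at least 1 tagged strain, against 4.89%. The exception was eft201. With 1 library per strain these counts have no replicate check. All 8 tagged summits fell inside an untagged peak. Over the whole lists 168 of 299 Pli1 summits (56.2%) and 41 of 62 Nse2 summits (66.1%) did. These shares are not a like comparison, since untagged peaks covered 85.6 to 94.4% of 6 of the 7 genes but 18.7% of the chromosomes. A summit inside such a gene was therefore likely to fall in an untagged peak. Signal at these genes was also called where no tag was present. How much of the tagged signal goes beyond it was not tested, since scores of different lists share no known scale.

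**Figure D1:**
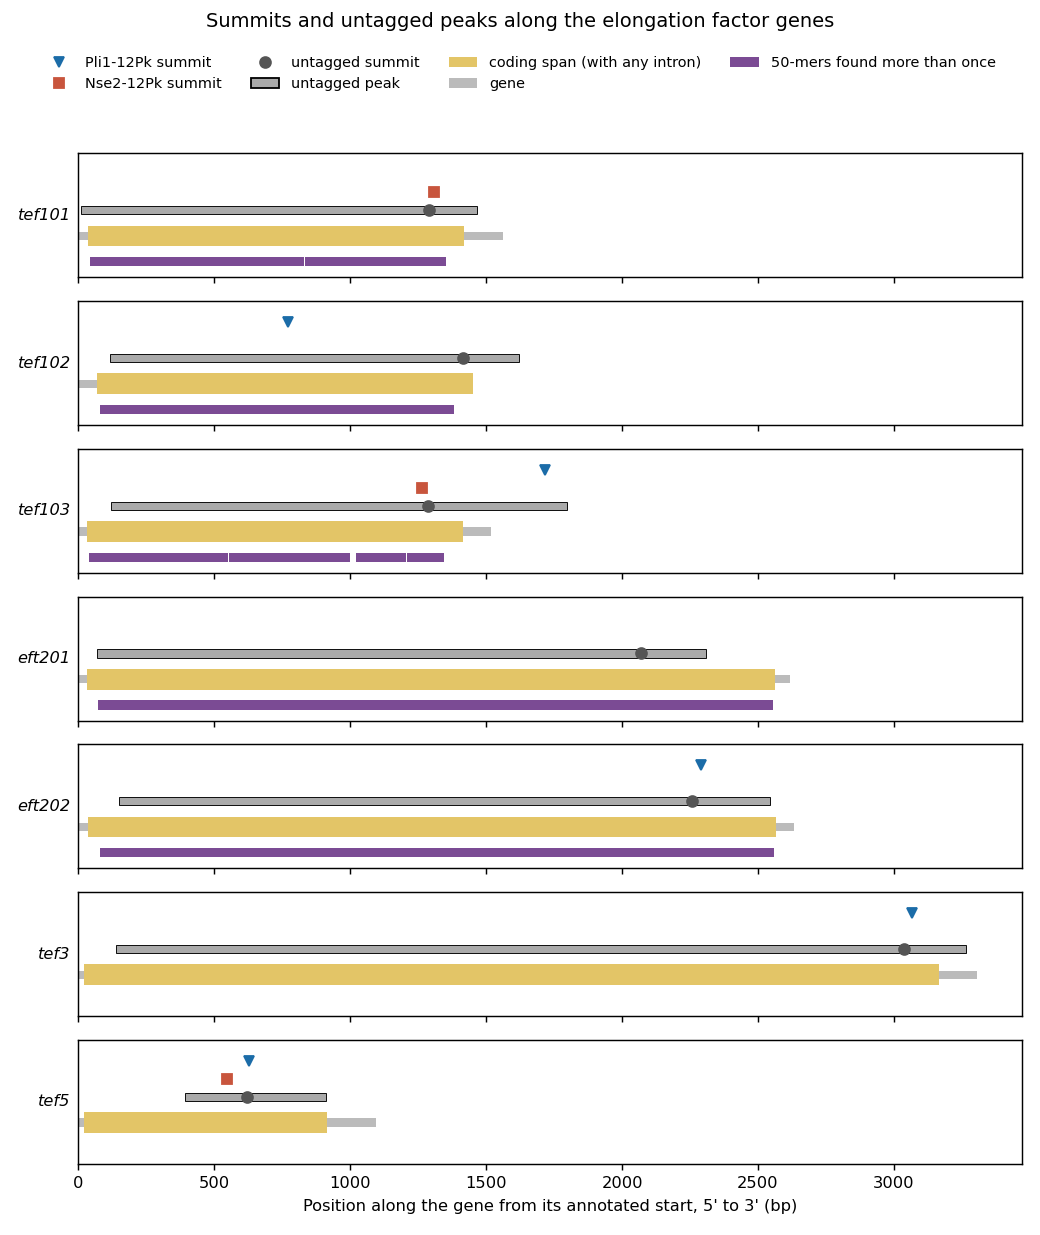
Each panel shows 1 gene from its annotated start, 5' to 3', in bp: the gene (grey), its coding span (yellow), 50-mers found more than once in the genome (purple), the untagged peak (outlined bar) and the summits within 200 bp (Pli1-12Pk triangles, Nse2-12Pk squares, untagged circles). Untagged peaks cover most of each gene but tef5, and the Pli1 summit of tef103 lies past the end of the gene.

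The 3 EF-1 alpha genes did not carry the same calls. At tef101 an Nse2 summit lay in the coding sequence at position 268207, in a region with a score of 19695 (rank 18 of 62), and the untagged summit lay 19 bp away at 268226, in a peak with a score of 635 (rank 105 of 3535). No Pli1 summit was near tef101: the Pli1 region that holds it is 139285 bp long (score 4638, rank 54 of 299) and has its summit 15584 bp from the gene, beside the non-coding RNA SPNCRNA.6762 and outside untagged peaks. In tef101 the Nse2 and the untagged summit thus almost coincided, close to the 3' end of the coding sequence.

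At tef102 the order was different, with a Pli1 summit and no Nse2 summit. The Pli1 summit was at position 4095902, in the middle of the coding sequence (coding position 701), in a region with a score of 3934 (rank 72 of 299). The untagged summit was 643 bp away at 4096545 (coding position 1344, 39 bp before the end of the coding sequence), in a peak with a score of 954 (rank 27 of 3535), the highest untagged score of the 7 genes. This was the largest distance between a tagged summit and an untagged summit at any of the genes. Coding position 701 lies in a stretch of 218 bp that is the same in all 3 copies, whereas coding position 1344 lies 31 bp from the nearest repeated 50-mer. The gene overlaps the neighbouring gene rbm8 and the antisense non-coding RNA SPNCRNA.957, and SPNCRNA.957 also spans the Pli1 summit. The Nse2 region over tef102 is 1392515 bp long, holds 589 protein-coding genes and has its summit 357757 bp away at atd1, so its score of 21206 says nothing about tef102.

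At tef103 both tagged strains had a summit, 453 bp apart. The Nse2 summit was at position 626259 in the coding sequence, in a region with a score of 28833 (rank 10 of 62). The Pli1 summit was at 625806, in a region with a score of 6055 (rank 41 of 299). It lay 198 bp past the 3' end of the gene, just inside the 200 bp limit, and within the non-coding RNA SPNCRNA.1375, so it could as well be given to that RNA. The untagged summit was at 626235, 24 bp from the Nse2 summit and 429 bp from the Pli1 summit, in a peak with a score of 539 (rank 159 of 3535) that reached 277 bp beyond the end of the gene. The untagged summits of tef101 and tef103 fell on the same base of the coding sequence, position 1254, and the Nse2 summits of these genes lay 43 bp apart in the same coordinates (1273 in tef101 and 1230 in tef103). Since the sequence there is common to all 3 copies, which copy gave the signal was not tested.

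**Figure D2:**
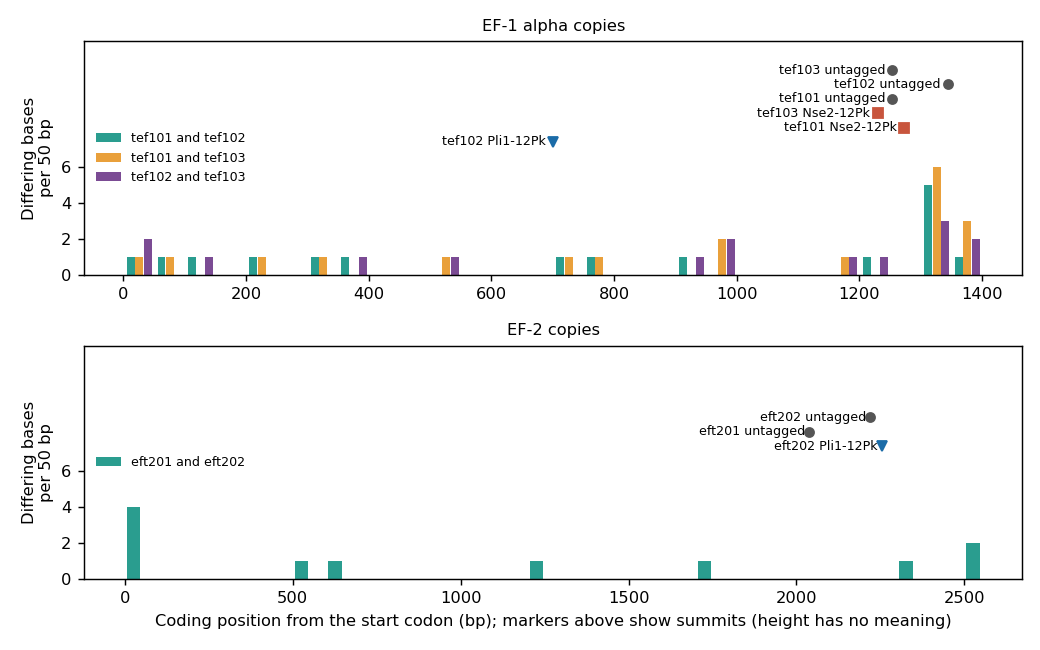
Bars count the bases that differ between copies in successive 50 bp stretches of the coding sequence (x axis, coding position in bp; the last stretch is shorter), for the EF-1 alpha copies above and the EF-2 copies below, and markers show the summits in the coding sequence (their height has no meaning). The EF-1 alpha copies differ most at the 3' end, where up to 6 bases differ per 50 bp, and the untagged summit of tef102 is the one that lies there.

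The EF-2 genes differed in the Pli1 list. At eft202 a Pli1 summit was at position 539579 (coding position 2254), in a region with a score of 2964 (rank 120 of 299), and the untagged summit was 34 bp away at 539545 (coding position 2220), in a peak with a score of 480 (rank 204 of 3535). At eft201 the Pli1 region was 211781 bp long, with a score of 3836 (rank 76 of 299) and its summit 114978 bp away at SPAC1805.10, and the untagged peak had a score of 331 (rank 457 of 3535) with its summit at 2908193 (coding position 2037). Each region has a single summit, so a gene without one is only known to lie in a region whose highest point was elsewhere. The Nse2 summits of the regions over both genes were far away, 539682 bp from eft202 at the non-coding RNA SPNCRNA.7192 and 109540 bp from eft201 at the ribosomal protein gene rps1001. The untagged summits of eft202 and eft201 were 183 bp apart in coding position, although both lie in the same identical stretch of 587 bp. Of the untagged peaks, 99.8% of the bases at eft202 and 99.5% of those at eft201 were in repeated 50-mers. Calls were thus made through sequence that is the same in both copies, and which copy gave the signal was not tested.

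The single genes are free of this limit. In tef3 the Pli1 summit was at position 1688712, in a region of 19529 bp with a score of 4549 (rank 55 of 299), and the untagged summit was 31 bp away at 1688681, in a peak with a score of 765 (rank 58 of 3535). This Pli1 region was the shortest over any of the 7 genes and held 5 protein-coding genes. The Nse2 region over tef3 had the highest score of its list (41291), but its summit was 93509 bp away at adh1, the alcohol dehydrogenase gene. In tef5 the summits of all 3 lists fell in the second coding exon: Pli1 at 1733378 (score 3041, rank 113 of 299), Nse2 at 1733299 (score 9700, rank 37 of 62) and untagged at 1733370 (score 713, rank 72 of 3535). The Pli1 summit was 8 bp and the Nse2 summit 71 bp from the untagged one, and the tagged summits were 79 bp apart. Of the 7 genes, tef5 is the one where both tagged strains and the untagged strain had a summit inside the gene.

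Distances between tagged and untagged summits can be read against the whole lists. Of the 5 Pli1 summits near the genes, 3 lay within 100 bp of an untagged summit (eft202, tef3 and tef5), with a median distance of 34 bp and a range of 8 to 643 bp. Over all 168 Pli1 summits inside untagged peaks, 83.3% did, with a median of 28 bp. All 3 Nse2 summits lay within 100 bp (19 to 71 bp, median 24 bp), as did 82.9% of the 41 Nse2 summits inside untagged peaks (median 21 bp). The Pli1 summits beyond 100 bp were those of tef102 (643 bp) and tef103 (429 bp).

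**Figure D3:**
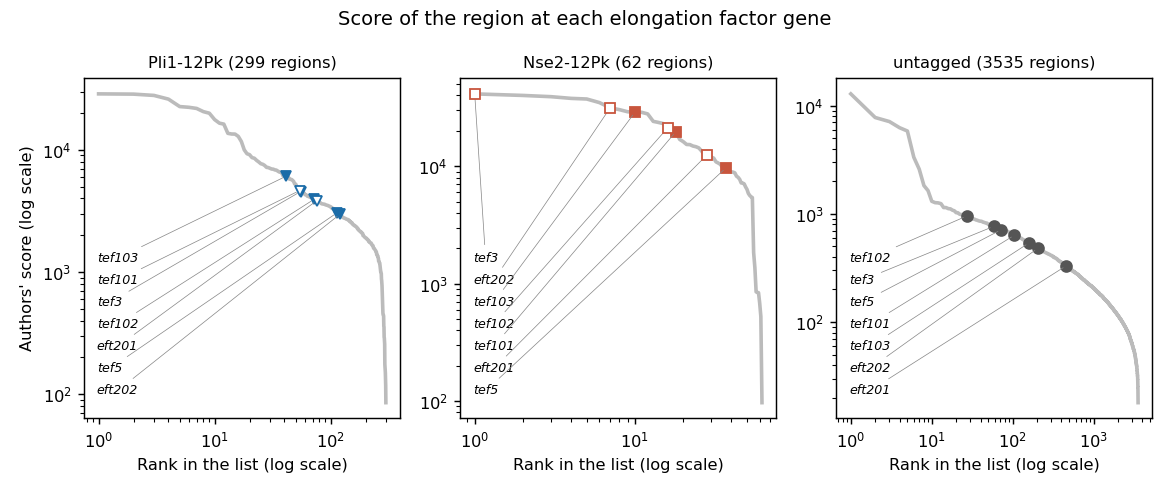
Each panel shows the authors' scores of 1 list in falling order (grey line; both axes are logarithmic) with the region over each elongation factor gene marked, filled where the summit lies within 200 bp of the gene and open where it lies farther away. Untagged scores run from 331 (eft201) to 954 (tef102), and the Nse2 region at rank 1 is the one over tef3, with its summit at adh1.

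In the untagged strain the 7 genes stood high in the list. Each was touched by a single untagged peak, where 54.3% of protein-coding genes were touched at all. All 7 had a score of at least 300, which 10.0% of protein-coding genes had, and 5 of 7 (tef101, tef102, tef103, tef3 and tef5) had at least 500, which 3.54% had. The median of their scores was 635, against 147 for the 2774 touched protein-coding genes. By score, tef102 was at rank 21, tef3 at 51, tef5 at 64, tef101 at 97, tef103 at 151, eft202 at 196 and eft201 at 426 among those genes. The EF-2 copies were therefore the lowest of the 7, and the scores of the EF-1 alpha copies ran from 539 to 954. All 7 genes were also inside a region of each tagged list, but so were 5112 of 5113 protein-coding genes (100% to 3 digits in both lists), so that count carries no information on them.

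The untagged peaks filled the gene bodies. They covered 94.4% of tef3, 93.4% of tef101, 92.2% of tef103, 92.1% of tef102, 91.0% of eft202 and 85.6% of eft201, but 47.2% of tef5. Coverage of at least 70% was found in 6 of the 7, against 2.97% of protein-coding genes, and the median was 92.1%, against 35.6% for touched genes. The peaks were long: that of tef3 (3123 bp) was the fourth longest of 3535, those of eft202 (2397 bp) and eft201 (2243 bp) ranked 17 and 26, and those of tef103 (1677 bp), tef102 (1507 bp) and tef101 (1459 bp) ranked 81, 127 and 140. The peak of tef5 (518 bp) was close to the list's median of 559 bp. None of the 7 peaks reached its gene's annotated start. Their upstream edges lay at base 10 of tef101, 68 of eft201, 116 of tef102, 120 of tef103, 141 of tef3, 149 of eft202 and 393 of tef5, counted from the gene's first base, and 1.98% of touched genes had their start inside a peak. At the other end, the peaks of tef102 and tef103 ran past the annotated end by 169 and 277 bp (2 of 7, against 2.63% of touched genes). The annotation of tef102 stops at the stop codon, so no 3' untranslated region is annotated there.

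The summits of the untagged peaks lay towards the 3' end of the genes. As a share of gene length from start to end, they were at 97.3% in tef102, 91.8% in tef3, 85.7% in eft202, 84.8% in tef103, 82.6% in tef101 and 79.0% in eft201, and in tef5 at 56.5%. The share of tef102 is raised by its annotation, which has no 3' untranslated region, where the other genes have 58 bp (eft201) to 182 bp (tef5). In 6 of 7 the summit was in the last 30% of the gene, against 656 of 2745 touched protein-coding genes with a summit inside them (23.9%). The median position was 84.8% in the 7 genes and 53.3% in all such genes. Measured to the end of the coding sequence, the untagged summits of tef101, tef103 and tef3 were 129, 129 and 128 bp before it, that of tef102 39 bp, that of tef5 295 bp, that of eft202 309 bp and that of eft201 492 bp. The copies share sequence, so these 7 genes are not 7 independent cases.

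**Figure D4:**
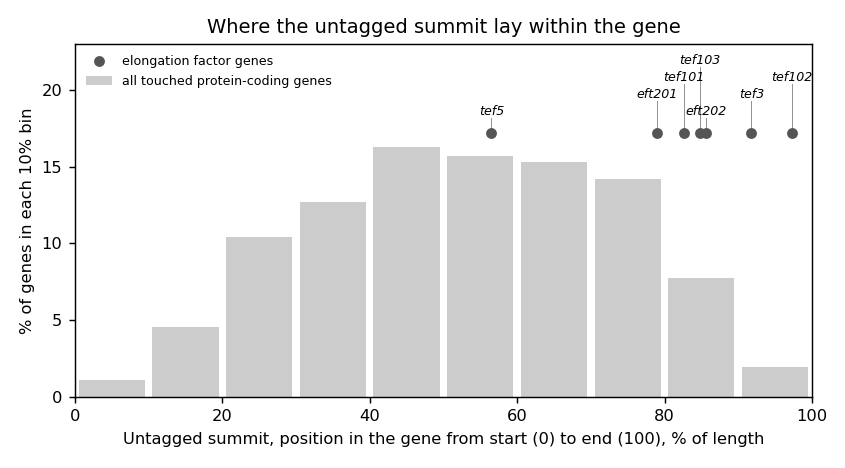
Bars give the share of all touched protein-coding genes (2745 with the summit inside the gene) in each 10% of gene length, from start to end, and the points above them give the position in each elongation factor gene (their height has no meaning). Of the 7 genes, 6 lie beyond 70% of the gene's length and tef5 lies near the middle.

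GC content, taken over the whole gene, moved with the untagged score over all protein-coding genes. Among the elongation factor genes this order was only partly kept. The GC content of tef102 was 50.0%, of tef103 48.1%, of tef3 48.0%, of tef101 47.8%, of eft202 45.9%, of eft201 45.4% and of tef5 41.6%, against a median of 36.8% in all protein-coding genes. For tef102, 0.0978% of protein-coding genes had as much GC or more, and for tef5 6.04%. The highest untagged score of the elongation factor genes was at tef102 (954), which had the most GC. The lowest scores were at eft202 (480) and eft201 (331). Over the whole gene tef5 had the least GC, with a score of 713, above tef101 (635) and tef103 (539). The untagged peak covered only 47.2% of tef5, against 85.6% (eft201) to 94.4% (tef3) of the other genes. Whole-gene GC is therefore not a like measure for tef5, and GC under the peaks was not computed. Over all protein-coding genes, the median GC content was 41.3% in the 181 genes with an untagged score of at least 500, 39.4% in the 331 with at least 300 but less than 500, 37.6% in the 2262 below 300 and 35.4% in the 2339 that were not touched. The part of base composition in the untagged peaks of the elongation factor genes was not tested.

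In the 250 bp before the annotated start, none of the 7 genes had a base in an untagged peak. The share of all protein-coding genes with such an empty window was not computed. Of touched protein-coding genes, 1.98% had their annotated start inside a peak, so an empty window may be common. The 250 bp windows were searched on both strands for the HomolD box (CAGTCACA). This box is known from the promoters of ribosomal protein genes in fission yeast. The HomolD box was found at 4 of the 7 (tef101, tef102, tef103 and tef3), against 2.62% of all protein-coding genes. In the EF-1 alpha genes the HomolD box began 44 bp (tef101), 56 bp (tef102) and 59 bp (tef103) before the start of the gene, and in tef3 139 bp before it. The searched window of tef102 also overlaps the neighbouring gene rbm8. These matches describe the sequence and show no binding. They are given on the strand of the gene, 30 bases each, with the match in capitals (chr3:269542-269571, chr1:4095065-4095094, chr2:627563-627592 and chr3:1685495-1685524, in the order of the lines); tef102 and tef103 have the reverse complement.
tef101: cttgtggagagCAGTCACAaatcacttagt
tef102: gccacgccagaTGTGACTGctttccaacga
tef103: aacgaacgttaTGTGACTGctttttttgcg
tef3: aagaaaaagaaCAGTCACAttgtaaatatg

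The untagged peaks next to those of the 7 genes are given as description. On either side of each gene the next peak had a lower score than the gene's own peak, which scored 331 (eft201) to 954 (tef102). The median score of the whole untagged list was 129, so lower neighbours are likely at any peak with such a score. Other peaks with scores like those of the 7 genes were not compared in this way, so the lower neighbours are no trait particular to these genes. Upstream of the 7 peaks, the next untagged peak had a score of 45 to 222 and was 669 to 4878 bp away. Downstream, it had a score of 40 to 575 and was 346 to 5316 bp away. The highest of these, 575, was at rpl1602, a ribosomal protein gene 788 bp past the peak of tef102, and the lowest, 40, was at efr3, 346 bp past the peak of tef101.

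Other genes of translation were looked at by a list of 35 symbols for initiation, elongation and release factors, of which 28 were matched to further genes and used. Untagged peaks touched 25 of these 28, against 54.3% of all protein-coding genes, and an untagged summit lay within 200 bp of 25, against 54.1%. The median of their highest untagged scores, with untouched genes at 0, was 186 for 21 initiation genes and 146 for 7 others. It was 635 for the 7 elongation factor genes described here. The 7 others include tif51 (score 315) and tif512 (score 146), which are also annotated as elongation factors (putative for tif512). A Pli1 summit lay within 200 bp of 5 of 28 and an Nse2 summit of 0 of 28, against 5 and 3 of the 7 elongation factor genes and the 4.60% and 0.821% of all protein-coding genes. The 5 were tif1, which encodes the helicase eIF4A (Pli1 score 3419, rank 99), tif223 for eIF2B gamma (3603, rank 85), moe1 for eIF3d (1891, rank 201), tif6, which acts in ribosome biogenesis (2264, rank 171), and tif51 for eIF5A (3373, rank 101; summit 119 bp outside the gene). Of these, tif223 had no untagged peak, which none of the elongation factor genes shared. The highest untagged scores of the list were at the gene for eIF3a, tif301 (600), at moe1 (559) and at tif471, which encodes eIF4G (518).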

How the data were processed

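Called regions of 1 ChIP library for each of 3 strains were analysed; the inputs were not analysed here on their own. Per the labels' protocols, ChIP over input ratios were scaled by the budding yeast calibrator. Per the file headers, the calls rest on uniquely mapped S. pombe reads and a p-value track. MACS3, Bowtie2, SAMtools and cutadapt are named without roles or versions in the submitters' processing notes, with sacCer3, the calibrator's build. Per the file headers, each list is of 1 library. The deposited score is a whole number per region on an unstated scale. The 3 deposited narrowPeak columns for signal, p and q hold 0 throughout. No build of fission yeast is named; sequence names and versions match ASM294v3. Positions count from 1.

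Genes, lists, motifs and the naming rule (all 7 members, listed translation genes with a tagged summit, and the 3 of these with the highest untagged scores) were chosen with earlier results of these data known. A further motif search is not reported here, for a reason other than its outcome. Overlap meant at least 1 bp, and a summit was assigned within 200 bp of a gene. The listed symbol cam1 matched the calmodulin gene and was left out, efb1 is a synonym of tef5, and sum1 and tif34 are 1 gene. Alternatives changed the window, overlap, score limit, gene span, ranking and k-mer length. Computations used Python 3.11.15 with NumPy 2.4.6 and Matplotlib 3.10.9, and were tested on simulated data. No source gives the depth.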

Additional observations from a re-analysis of the deposited data

How the results depend on the processing

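The counts of genes with a summit or a region, and of tagged summits inside untagged peaks, stayed within 1.5 times the reported value in all 29 alternatives run. Some of these could hardly change: Pli1 and Nse2 regions cover 99.3% and 99.8% of the chromosomes, so nearly every gene is touched. A margin around the untagged peaks also cannot lower the count of summits inside them. With a window of 0 or 50 bp, or with coding spans only, 4 genes had a Pli1 summit, since that of tef103 fell out, and with 500 bp there were 5. In the upper part of the Nse2 list by score, 2 genes had a summit, because the region over tef5 fell below the median score. With at least 50% of the gene covered, 6 genes were touched in the untagged list, tef5 being the exception. Ranks stayed within 1.5 times in 33 of 36 alternatives. Those that kept only regions with a summit within 200 bp could not differ, since 1 region of each list touched each gene. Without the outer 30 kb of chromosome III the Pli1 rank of tef103 became 27, and the Nse2 ranks of tef102 and eft202 became 10 and 4. With 150-mers, the repeated starts were 29.2% in tef101, 48.5% in tef102 and 31.2% in tef103, against 65.6%, 75.1% and 72.3% with 50-mers, while eft201 and eft202 kept 66.1% and 65.7%. With cam1 kept, 26 other translation genes were touched; this alternative was chosen after seeing the data. No paired analysis was possible because each strain has 1 ChIP library. Depth cannot be judged from the lists, and a summit is a single point per region, so tagged regions of 19529 bp and more give no value for a gene without one.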
